A study of Mus musculus with 11 samples.

Results

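The proteasome subunits were the rows of the pancreas and adipose count tables whose gene name begins with Psma, Psmb, Psmc, Psmd, Psme, Psmf or Psmg followed by a number, with pseudogene names left out. They came to 50 of the 55350 genes in either table, after 4 pseudogene names had been dropped. The mice were male wild type C57BL/6 animals labelled 16 weeks old. Control mice had eaten normal chow for 12 weeks and received saline. Mice with obesity-related alcohol-induced acute pancreatitis (OA-AP) had been kept on a high-fat diet for the same 12 weeks before they were given 2 intraperitoneal injections of ethanol at 2 g/kg, 1 h apart, with tissue taken 12 h after the first. RNA sequencing covered 2 control and 3 OA-AP pancreas samples, and epididymal adipose tissue was represented by 3 samples of each group. Diet, ethanol and pancreatitis were present together in every OA-AP sample, so their parts cannot be told apart. Nothing in the labels ties a pancreas sample and an adipose sample to 1 mouse.

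The proteasome degrades proteins tagged with ubiquitin. Its barrel, the 20S core, is built of alpha rings that gate the entrance and beta rings whose catalytic subunits, encoded by Psmb5, Psmb6 and Psmb7, cut the substrate. The 19S cap recognises, unfolds and feeds substrates through its ATPases (Psmc genes) and non-ATPase subunits (Psmd genes). Interferon signalling replaces the catalytic subunits with Psmb8, Psmb9 and Psmb10 to give the immunoproteasome, which makes peptides for MHC class I, and the PA28 activator encoded by Psme1 and Psme2 is known as its partner. The members were grouped accordingly into 14 constitutive core genes, 17 cap genes, 3 immunoproteasome genes, 3 PA28 alpha/beta genes and 13 others, which are assembly chaperones, other activators, an inhibitor, tissue-specific core subunits and 1 gene that is not a subunit.

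Library totals ranged from 14188832 to 17238919 counts in the pancreas and from 20825177 to 27928097 in adipose tissue. Adipoq, the fat cell hormone gene, lay between 2525 and 3752 CPM in adipose tissue and at or below 0.0997 CPM in the pancreas. A list of 51 acinar genes took 81.4% and 83.0% of control pancreas counts and 64.8% to 67.5% in OA-AP. In adipose tissue it took 1.14% of counts in control replicate 2 and 0.0187% to 0.0261% in the other 5 libraries. The proteasome genes took 0.0569% and 0.0615% of counts in the control pancreas, 0.0969% to 0.105% in the OA-AP pancreas, 0.315% to 0.351% in control adipose tissue and 0.382% to 0.416% in OA-AP adipose tissue. Levels below are counts scaled by TMM to a common library size (CPM), set within each tissue, so that they are compared between groups of a tissue and not between tissues. In bulk tissue, fewer cells of a type and less RNA per cell cannot be told apart.

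In the pancreas, 5 of 17 subunits of the 19S cap rose and 2 of 3 subunits of the immunoproteasome fell, while the constitutive core had members on both sides of 0. Genes were called upregulated or downregulated at a Benjamini-Hochberg adjusted p under 0.05 in edgeR's quasi-likelihood test together with a fold change of at least 1.5. Of the 47 proteasome genes with enough counts to test, 7 were upregulated and 3 downregulated. Among all 12884 genes tested, 16.2% were upregulated and 13.5% downregulated, so the members' counts as a whole were no larger than the background. Of the 7, 5 were cap genes (of 17 tested), 1 a core gene (of 14) and 1 an activator, and of the 3, 2 were immunoproteasome genes (of 3) and 1 a core assembly chaperone. The median log2 fold change was 0.32 over the cap, -0.075 over the core, -1.74 over the immunoproteasome and 0.039 over all genes tested. At any fold 11 members were higher and 5 lower, against 17.8% and 15.2% of all genes. Scaling by library totals alone, with no correction for the acinar share, moved the median of all genes to 0.75. The calls became 28 higher and 1 lower, which was Psmb10, while Psmb9 and Psmg1 were no longer called. Relative to that median the cap stood at 0.28, the core at -0.12 and the immunoproteasome at -1.79, as against 0.28, -0.11 and -1.78 relative to the TMM median.

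The cap genes that rose in the pancreas were all non-ATPase subunits. Psmd8, a lid subunit, was measured at 27.8 and 29.02 CPM in the controls and 54.8, 48.97 and 77.7 CPM in OA-AP (log2 fold change 1.09 ± 0.21 (SE), adjusted p = 0.00611). Psmd7, the lid partner of the deubiquitinase, was at 13.99 and 15.3 CPM in the controls and 26.5, 29.1 and 29.8 CPM in OA-AP (log2 fold change 0.96 ± 0.14 (SE), adjusted p = 0.00199). Psmd2, the large base scaffold subunit, was at 18.1 and 18.9 CPM in the controls and 33.2, 31.7 and 40.5 CPM in OA-AP (log2 fold change 0.92 ± 0.16 (SE), adjusted p = 0.00371). In each of these genes every OA-AP sample lay above both controls. Psmd4, a ubiquitin receptor, was at 16.7 and 16.9 CPM in the controls and 27.8, 32.04 and 30.6 CPM in OA-AP (log2 fold change 0.84 ± 0.14 (SE), adjusted p = 0.0032). Psmd11, a lid subunit, was at 11.9 and 11.2 CPM in the controls and 18.95, 18.6 and 23.1 CPM in OA-AP (log2 fold change 0.81 ± 0.16 (SE), adjusted p = 0.0074). The groups were again apart for both genes. Psmd4 and Psmd7 kept their calls without any 1 library, while Psmd8 and Psmd11 lost theirs without either control and Psmd2 without control replicate 1 (edgeR's adjusted p up to 0.0737, 0.0819 and 0.0519), and 3 of the 7 upregulated members were left without either control. Of the 7 upregulated members, Psmd8, Psmd7, Psmd2, Psmd11, Psma3 and Psme3 were highest in OA-AP replicate 3, and Psmd4 in OA-AP replicate 2. OA-AP replicate 3 also had the highest summed neutrophil markers (106 CPM, against 4.63 and 14.3 CPM in the other OA-AP samples and 1.80 and 2.79 CPM in the controls). Its summed duct markers were the highest too (210.2 CPM, against 119 to 140.2 CPM in the other OA-AP samples). Of the 8 neutrophil markers 7 were tested and 0 were upregulated. The summed adipocyte markers were 54.7 and 71.3 CPM in the controls and 161 to 292 CPM in OA-AP, with 3 of 4 tested upregulated, Adipoq near 0 and Retn at 0 in every pancreas library. Mesothelial markers summed to 109 and 120.1 CPM in the controls and 246 to 452 CPM in OA-AP, with 1 of 5 upregulated. The part of these cells in the pancreas values was not tested.

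**Figure D1:**
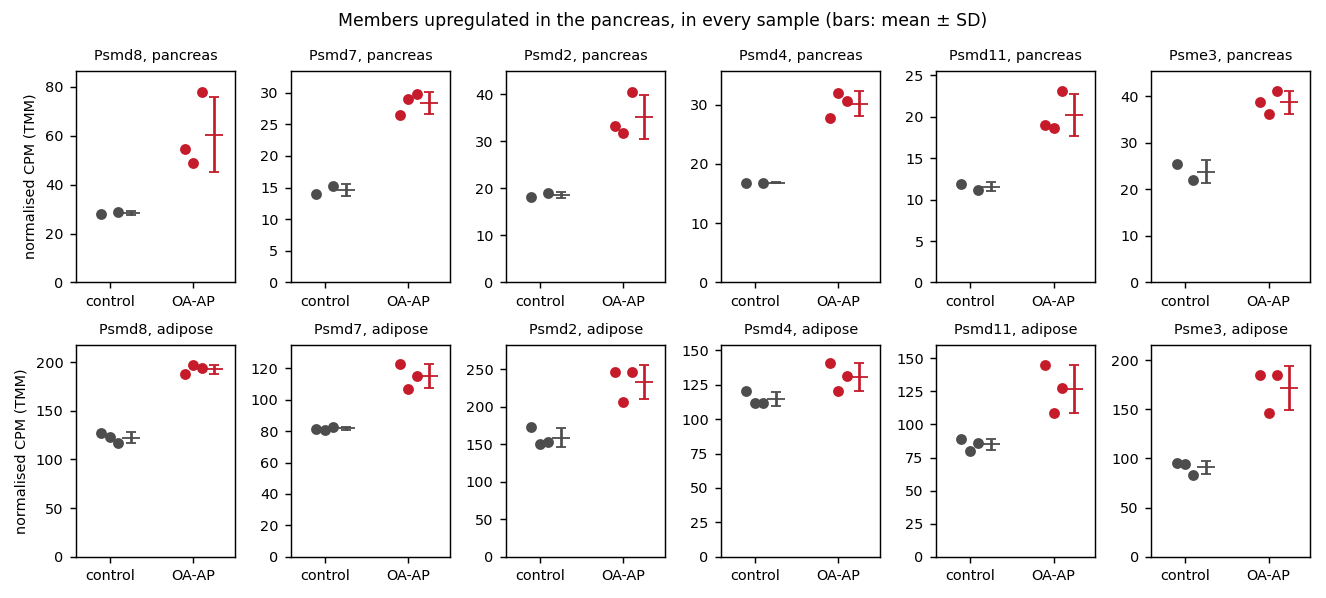
Normalised CPM of the 5 cap genes and of Psme3 that were upregulated in the pancreas, with a point for each sample and bars for the mean ± SD of each group (2 control and 3 OA-AP pancreas samples, 3 and 3 adipose samples). In every pancreas panel each OA-AP sample lies above both controls. OA-AP replicate 3 is highest in each of them except that of Psmd4, at 77.7 CPM for Psmd8.

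The 6 ATPases of the cap moved less. None passed both thresholds, Psmc1 and Psmc2 were higher at adjusted p under 0.05 (log2 fold change 0.50 and 0.51), and the median over the 6 was 0.16. Psmd3 also passed the adjusted p alone (log2 fold change 0.44 ± 0.14 (SE), adjusted p = 0.0492). Other cap genes pointed down without passing, among them Psmc3 (log2 fold change -0.27 ± 0.13 (SE), adjusted p = 0.148), Psmc6 (log2 fold change -0.16 ± 0.15 (SE), adjusted p = 0.461), Psmd6 (log2 fold change -0.098 ± 0.13 (SE), adjusted p = 0.605) and Psmd14, the cap's deubiquitinase (log2 fold change -0.25 ± 0.26 (SE), adjusted p = 0.496). The cap genes of the pancreas therefore ranged from -0.27 to 1.09 on the log2 scale.

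Within the core, the alpha ring held 1 upregulated gene of 7, with 5 genes above 0 and 2 below and a median log2 fold change of 0.26. Psma3 was at 12.7 and 12.5 CPM in the controls and 19.7, 19.2 and 22.2 CPM in OA-AP (log2 fold change 0.69 ± 0.15 (SE), adjusted p = 0.00924). Psma7 passed the adjusted p alone (log2 fold change 0.52 ± 0.13 (SE), adjusted p = 0.0156). All 7 constitutive beta genes had a log2 fold change below 0, with a median of -0.35, of which Psmb5 and Psmb6 passed the adjusted p and none the fold of 1.5. Psmb5 passed both with DESeq2 size factors, with TMM without acinar genes or without OA-AP replicate 3, and Psmb7 without OA-AP replicate 3. The 2 rings were not tested against each other. With library totals alone that median was 0.37, and all 7 still lay below the median of all genes.

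The catalytic subunits were at the bottom of the beta ring. Psmb5, which carries the chymotrypsin-like activity, was at 22.8 and 25.03 CPM in the controls and 15.6, 16.02 and 16.8 CPM in OA-AP (log2 fold change -0.56 ± 0.13 (SE), adjusted p = 0.0149). Psmb6, with the caspase-like activity, was at 24.03 and 22.7 CPM in the controls and 17.6, 17.2 and 17.6 CPM in OA-AP (log2 fold change -0.42 ± 0.13 (SE), adjusted p = 0.0398). Both were lower in every OA-AP sample than in either control, with a fitted fold change under 1.5. Psmb7, with the trypsin-like activity, was at 10.3 and 16.7 CPM in the controls and 9.08, 9.096 and 10.8 CPM in OA-AP (log2 fold change -0.47 ± 0.23 (SE), adjusted p = 0.14), and its groups overlapped. Psmb1, Psmb3 and Psmb4, which have no catalytic role, had log2 fold changes of -0.35, -0.26 and -0.050 and did not pass.

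Psmb10 and Psmb9, of the immunoproteasome, gave the 2 largest decreases among the 47 members tested in the pancreas. Psmb10 was at 88.5 and 112 CPM in the controls and 19.1, 23.8 and 22.8 CPM in OA-AP (log2 fold change -2.20 ± 0.16 (SE), adjusted p = 0.000114). Its raw counts were 1031 and 1123 in the controls and 363, 416 and 435 in OA-AP. Psmb9 was at 4.205 and 2.19 CPM in the controls and 1.102, 1.14 and 0.628 CPM in OA-AP (log2 fold change -1.74 ± 0.44 (SE), adjusted p = 0.0187). It was low throughout, and it was no longer called without control replicate 1, without OA-AP replicate 1 or with library totals alone. With library totals its log2 fold change was -1.04. Psmb8 was at 1.97 and 3.19 CPM in the controls and 1.73, 1.602 and 0.889 CPM in OA-AP, and its groups were apart, but it did not pass the test (log2 fold change -0.87 ± 0.43 (SE), adjusted p = 0.152).

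**Figure D2:**
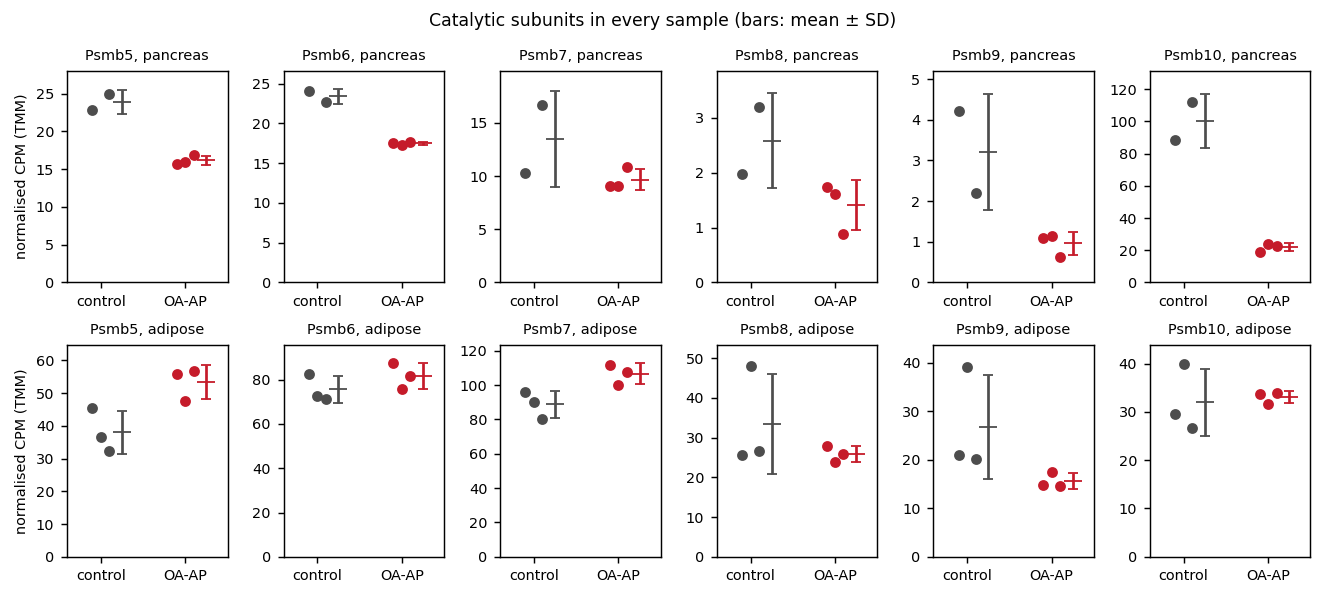
Normalised CPM of the constitutive catalytic subunits Psmb5, Psmb6 and Psmb7 and of the immunoproteasome subunits Psmb8, Psmb9 and Psmb10, with a point for each sample and bars for the mean ± SD of each group (n = 2 and 3 in the pancreas, 3 and 3 in adipose tissue). Psmb10 drops from 88.5 and 112 CPM to 19.1 to 23.8 CPM in the pancreas, and adipose control replicate 2 stands above the other controls for Psmb8 and Psmb9.

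Psmb10 lies beside a far more abundant gene. Ctrl, an acinar gene for a chymotrypsin-like enzyme, lies downstream on the same strand, 1873 bases away, and had a mean of 261182 counts per pancreas library. Ctrl was at 25717 and 31494 CPM in the controls and 12049, 13733 and 11548 CPM in OA-AP (log2 fold change -1.20 ± 0.17 (SE), adjusted p = 0.00181). Per 1000 counts of Ctrl there were 3.44 and 3.56 counts of Psmb10 in the controls and 1.58, 1.73 and 1.97 in OA-AP, so Psmb10 fell by more than Ctrl did. Whether reads from Ctrl reached Psmb10 was not tested. Psmb9 overlaps Tap1 on the opposite strand, and the strand setting of the counting is not given in the sources used here, so reads of the pair cannot be told apart. Tap1 was at 8.92 and 5.48 CPM in the controls and 6.19, 6.75 and 6.38 CPM in OA-AP (log2 fold change -0.17 ± 0.24 (SE), adjusted p = 0.625).

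PA28 alpha/beta showed no call in the pancreas. Psme1 was at 9.35 and 5.28 CPM in the controls and 4.51, 6.12 and 4.498 CPM in OA-AP (log2 fold change -0.54 ± 0.29 (SE), adjusted p = 0.183). Psme2 was at 3.09 and 2.99 CPM in the controls and 2.52, 3.55 and 1.83 CPM in OA-AP (log2 fold change -0.21 ± 0.36 (SE), adjusted p = 0.679). The groups of both genes overlapped. Psme2b is a near copy of Psme2, so the split of reads between them is uncertain. The nuclear activator Psme3 rose, at 25.6 and 22.1 CPM in the controls and 38.9, 36.2 and 41.1 CPM in OA-AP (log2 fold change 0.70 ± 0.14 (SE), adjusted p = 0.00718), while Psme4, which encodes the activator PA200, had a log2 fold change of 0.059. Among the core assembly chaperones Psmg1 fell (4.38 and 5.09 CPM in the controls and 2.52, 2.92 and 2.197 CPM in OA-AP; log2 fold change -0.89 ± 0.28 (SE), adjusted p = 0.0397), although that call was lost in 7 of 12 alternatives, those without control replicate 1, control replicate 2 or OA-AP replicate 1 among them. Its fellow chaperone Psmg4 was at 1.89 and 2.39 CPM in the controls and 1.05, 1.37 and 0.575 CPM in OA-AP (log2 fold change -1.09 ± 0.46 (SE), adjusted p = 0.0999). Psma8, Psmb11 and Psmc3ip had too few counts to be tested in the pancreas.

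In adipose tissue 9 of 14 core genes and 14 of 17 cap genes rose at an adjusted p under 0.05, most by less than 1.5-fold, and no immunoproteasome gene passed. By the adjusted p alone, the pancreas had 8 of 17 cap genes and 2 of 14 core genes higher and 2 core genes lower. There 17.8% of all genes were higher and 15.2% lower. With the fold of 1.5 added, 5 of 17 cap genes were upregulated in each tissue. Of 49 members tested in adipose tissue 7 were upregulated and 0 downregulated, against 12.1% and 13% of the 15839 genes tested. At adjusted p under 0.05 with no fold threshold 27 members were higher and 0 lower, where 19.4% of all genes were higher and 17.5% lower. At an unadjusted p under 0.05, 33 were higher and 1 was lower, against 3826 and 3689 of the 15839 genes tested. DESeq2 called 1 gene, Psmb9, downregulated. All 17 cap genes and all 14 core genes had a positive log2 fold change, with medians of 0.49 and 0.40 against -0.015 over all genes tested, and all 31 also lay above the median of all genes with library totals alone (-0.17). That scaling left 2 of the 7 upregulated genes, without Psmb4, Psmd3, Psmd6, Psmd8 and Psmd14, and called 1, Psmb9, lower. The immunoproteasome median was -0.37. In the same samples the summed neutrophil markers were at 17.4 to 36.1 CPM in the controls and 187 to 210.3 CPM in OA-AP, with 6 of 7 tested upregulated, while 5 of 7 fibroblast markers and 3 of 12 adipocyte markers were downregulated and 1 adipocyte marker was upregulated. Their part in the adipose values was not tested.

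**Figure D3:**
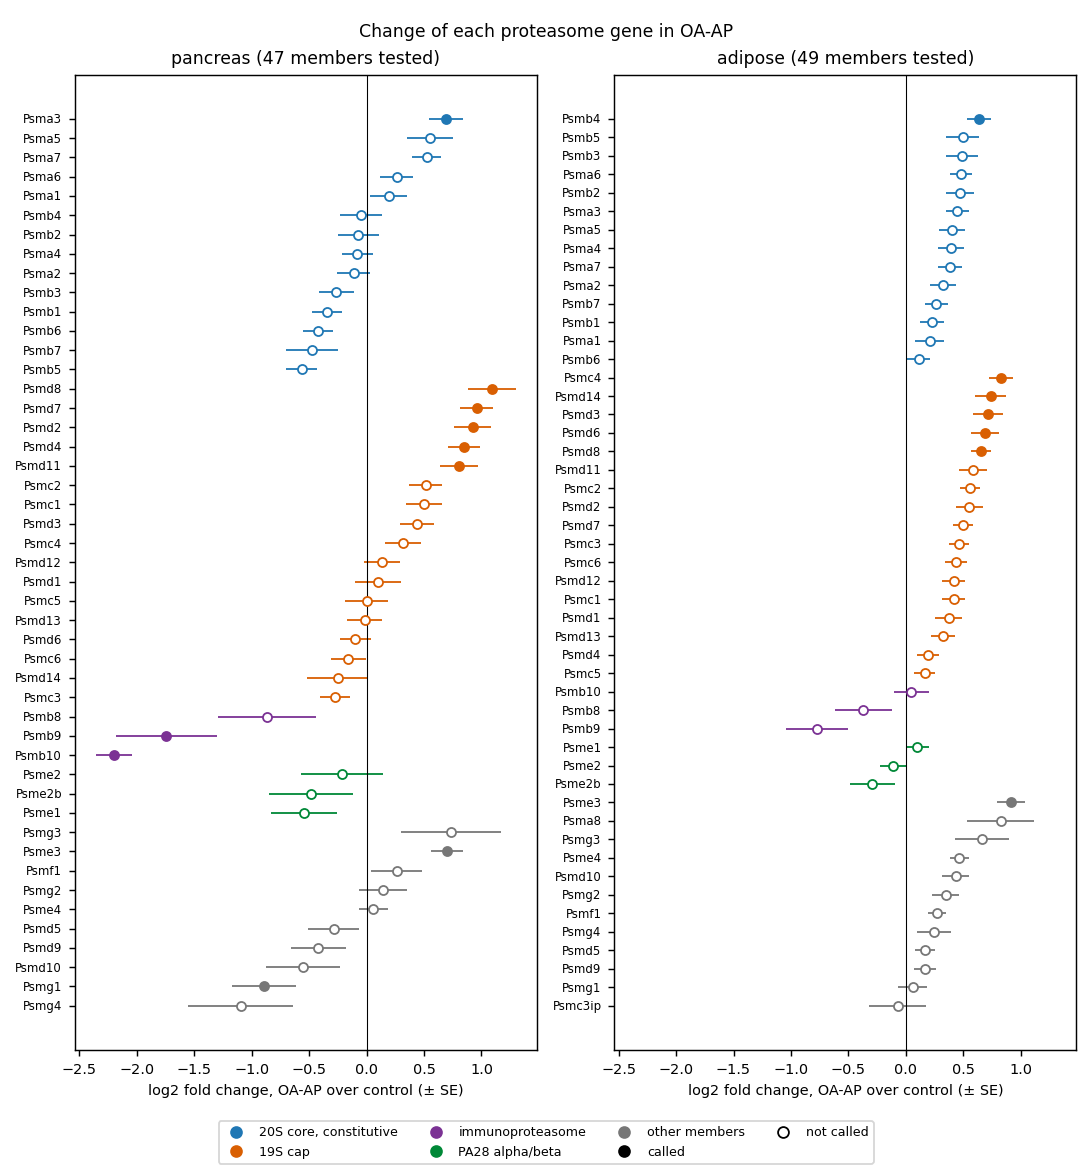
Log2 fold change of OA-AP over control (± SE) for each tested member, 47 in the pancreas and 49 in adipose tissue, coloured by class and filled where the gene passed an adjusted p of 0.05 and a fold change of 1.5. With TMM scaling every core and cap point lies right of 0 in adipose tissue, while in the pancreas the core runs from -0.56 to 0.69.

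The upregulated adipose genes were 5 cap genes, 1 core gene and 1 activator. Psmc4, a cap ATPase, was at 65.7, 58.1 and 53.2 CPM in the controls and 111, 97.7 and 106 CPM in OA-AP (log2 fold change 0.83 ± 0.11 (SE), adjusted p = 0.00188). Psme3 was at 95.6, 94.3 and 83.5 CPM in the controls and 184, 146 and 185 CPM in OA-AP (log2 fold change 0.91 ± 0.12 (SE), adjusted p = 0.00221). Psmd14 was at 61.4, 58.1 and 45.4 CPM in the controls and 97.9, 81.8 and 94.9 CPM in OA-AP (log2 fold change 0.74 ± 0.14 (SE), adjusted p = 0.0064). None of these genes overlapped between the groups. Psmd3, a lid subunit, was at 96.7, 82.2 and 82.4 CPM in the controls and 164, 125 and 139 CPM in OA-AP (log2 fold change 0.71 ± 0.13 (SE), adjusted p = 0.00599). Psmd6, also of the lid, was at 51.2, 46.7 and 39.7 CPM in the controls and 78.3, 66.1 and 77.5 CPM in OA-AP (log2 fold change 0.69 ± 0.12 (SE), adjusted p = 0.00561). Psmd8 was at 127, 123 and 117 CPM in the controls and 188, 197 and 194 CPM in OA-AP (log2 fold change 0.66 ± 0.088 (SE), adjusted p = 0.00213), which made it, with Psme3, a member upregulated in both tissues. The core gene Psmb4 was at 75.8, 73.7 and 68.5 CPM in the controls and 122, 101 and 116 CPM in OA-AP (log2 fold change 0.64 ± 0.10 (SE), adjusted p = 0.00375), and the OA-AP samples of these 4 genes were likewise all above the controls. Without adipose control replicate 2, the library with acinar counts, the same 7 genes were called.

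Smaller increases filled out the core and cap. Psmd7 (log2 fold change 0.49 ± 0.087 (SE), adjusted p = 0.0055), Psmd2 (log2 fold change 0.55 ± 0.12 (SE), adjusted p = 0.01), Psmd11 (log2 fold change 0.58 ± 0.12 (SE), adjusted p = 0.0102), Psmc3 (log2 fold change 0.46 ± 0.090 (SE), adjusted p = 0.00798), Psma3 (log2 fold change 0.45 ± 0.0999 (SE), adjusted p = 0.0132) and Psmc6 (log2 fold change 0.44 ± 0.093 (SE), adjusted p = 0.0109) passed the adjusted p but not the fold of 1.5. Psmd4, upregulated in the pancreas, did not pass (log2 fold change 0.19 ± 0.095 (SE), adjusted p = 0.156). The catalytic subunit Psmb5 was at 45.3, 36.5 and 32.2 CPM in the controls and 55.9, 47.6 and 56.9 CPM in OA-AP (log2 fold change 0.49 ± 0.14 (SE), adjusted p = 0.032). Psmb7 was at 96.1, 90.1 and 80.5 CPM in the controls and 112, 99.96 and 108 CPM in OA-AP (log2 fold change 0.26 ± 0.0999 (SE), adjusted p = 0.0766). Psmb6 was at 82.8, 72.7 and 71.4 CPM in the controls and 87.7, 75.7 and 81.7 CPM in OA-AP (log2 fold change 0.11 ± 0.099 (SE), adjusted p = 0.409). The groups overlapped for Psmb6 and were apart for Psmb5 and Psmb7.

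No immunoproteasome gene was called in adipose tissue, and 1 control carried the highest value of each. Psmb8 was at 25.7, 48.01 and 26.7 CPM in the controls and 27.8, 23.8 and 25.96 CPM in OA-AP (log2 fold change -0.37 ± 0.25 (SE), adjusted p = 0.274). Psmb9 was at 20.9, 39.2 and 20.2 CPM in the controls and 14.8, 17.5 and 14.6 CPM in OA-AP (log2 fold change -0.77 ± 0.27 (SE), adjusted p = 0.0616). Psmb10 was at 29.5, 39.9 and 26.7 CPM in the controls and 33.7, 31.7 and 33.8 CPM in OA-AP (log2 fold change 0.048 ± 0.15 (SE), adjusted p = 0.823). Control replicate 2 was highest for all 3, and without it the log2 fold changes were -0.013, -0.38 and 0.24, none of them called. The same library had the highest sum over 10 lymphocyte markers, 56.4 CPM against 14.8 and 18.7 CPM in the other controls and 4.13 to 5.45 CPM in OA-AP, and 9 of the 9 markers tested fell. Their part in the values of Psmb8 and Psmb9 was not tested. Psme1, at 96.02, 109.7 and 95.3 CPM in the controls and 113, 99.04 and 109.6 CPM in OA-AP (log2 fold change 0.096 ± 0.10 (SE), adjusted p = 0.479), was not called. Psme2, at 86.5, 100.2 and 76.5 CPM in the controls and 79.4, 78.8 and 85.1 CPM in OA-AP (log2 fold change -0.11 ± 0.11 (SE), adjusted p = 0.466), was not called either.

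The balance of the cap to the core was also read inside each library, as the geometric mean of counts per kilobase over 17 cap genes divided by that over 14 core genes, so that no scaling between libraries enters. This measure was added after the data had been seen. It was 0.729 and 0.728 in the control pancreas and 0.928, 0.902 and 0.955 in the OA-AP pancreas. In adipose tissue it was 0.766, 0.773 and 0.799 in the controls and 0.829, 0.877 and 0.842 in OA-AP. The ratio was higher in OA-AP in both tissues with no overlap. Its mean was 0.728 ± 0.000395 (SD, n = 2) and 0.928 ± 0.0264 (SD, n = 3) in the control and OA-AP pancreas, and 0.779 ± 0.0173 and 0.849 ± 0.0249 (SD, n = 3 each) in adipose tissue.

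**Figure D4:**
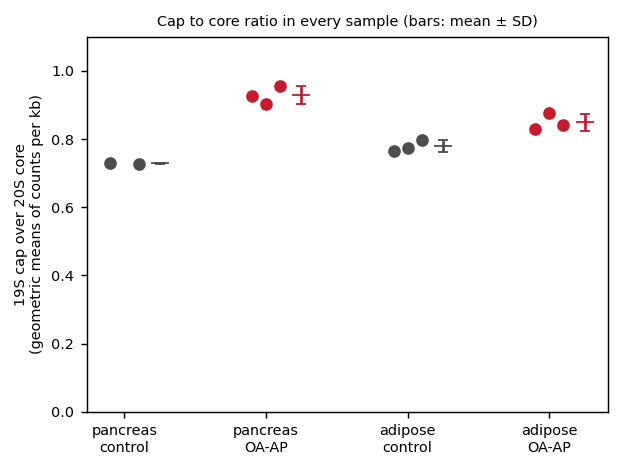
Ratio of the 19S cap to the constitutive 20S core in each library, from geometric means of counts per kilobase, with bars for the mean ± SD of each group (n = 2, 3, 3 and 3). The OA-AP samples lie at 0.902 to 0.955 in the pancreas and at 0.829 to 0.877 in adipose tissue, above the controls of the same tissue.

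Each immunoproteasome subunit was set against the constitutive subunit it replaces, as its share of the counts per kilobase of the pair. Psmb8 held 2.76% and 4.02% of its pair with Psmb5 in the control pancreas and 3.51%, 3.18% and 1.71% in OA-AP, and the groups overlapped. Psmb9 held 8.22% and 4.70% of its pair with Psmb6 in the controls and 3.11%, 3.29% and 1.79% in OA-AP, with no overlap. Psmb10 held 94.5% and 93.1% of its pair with Psmb7 in the controls and 80.8%, 84.0% and 80.8% in OA-AP. In adipose tissue the mean shares were 22.4% ± 7.29 and 13.7% ± 0.605 (SD, n = 3 each) for Psmb8, 15.2% ± 5.57 and 8.98% ± 1.42 for Psmb9 and 41.7% ± 4.70 and 38.4% ± 0.663 for Psmb10, control first. The highest adipose share of each was in control replicate 2, at 30.2%, 21.6% and 47.0%. The other controls stood at 15.7% and 21.4% for Psmb8, 11.5% and 12.6% for Psmb9 and 38.1% and 39.9% for Psmb10. The adipose groups overlapped for Psmb10 and were apart for Psmb8 and Psmb9.

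The change in OA-AP differed between the tissues for 16 members. In a fit of all 11 samples with a tissue by condition term, 2 of 49 members had a higher change in the pancreas and 14 a lower one at adjusted p under 0.05, against 10.5% and 10.8% of the 17046 genes tested. The median difference was -0.43 over the members and 0.055 over all genes. All 3 constitutive catalytic genes and 3 of the 4 other beta genes were among the 14, but none of the 7 alpha genes. The 2 rings were not tested against each other. Among the alpha genes 3 differences were positive and 4 negative, and Psma4 came closest (difference -0.46 ± 0.16 (SE) log2, adjusted p = 0.0665). Of 18 alternatives, 17 kept the call of Psmb5. Those of Psmb3, Psmb6, Psmb1, Psmb4 and Psmb7 were kept in 9, 8, 7, 7 and 7.

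Psmb10 differed most clearly (difference -2.23 ± 0.23 (SE) log2, adjusted p = 9.74e-05), with log2 fold changes of -2.20 in the pancreas and 0.048 in adipose tissue. Psmb5 followed (difference -1.04 ± 0.20 (SE) log2, adjusted p = 0.00327), lower in the pancreas and higher in adipose tissue. Psmc3 (difference -0.72 ± 0.14 (SE) log2, adjusted p = 0.00422), Psmd6 (difference -0.78 ± 0.18 (SE) log2, adjusted p = 0.0102) and Psmd14 (difference -0.97 ± 0.26 (SE) log2, adjusted p = 0.0218) are cap genes that passed the adjusted p in adipose tissue and had log2 fold changes of -0.27, -0.098 and -0.25 in the pancreas. The change was higher in the pancreas for Psmd4 (difference 0.67 ± 0.15 (SE) log2, adjusted p = 0.00825) and Psmd7 (difference 0.48 ± 0.14 (SE) log2, adjusted p = 0.0343). With library totals alone the split became 19 higher and 1 lower, around a median difference over all genes of 0.88. Of the 16, between 6 and 16 remained when 1 library was left out, and 9 or fewer remained without pancreas control replicate 1 or 2, pancreas OA-AP replicate 1, any adipose control or adipose OA-AP replicate 1 or 3.

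The remaining members of the 16 were measured as follows. Psmb3, a beta ring gene, was at 13.3 and 14.9 CPM in the controls and 11.1, 11.7 and 12.4 CPM in OA-AP in the pancreas and 79.6, 65.5 and 58.3 CPM in the controls and 106, 84.5 and 93.9 CPM in OA-AP in adipose tissue (difference -0.74 ± 0.20 (SE) log2, adjusted p = 0.0226). Psmb1 was at 30.98 and 33.8 CPM in the controls and 23.8, 25.8 and 26.9 CPM in OA-AP in the pancreas and 101, 95.9 and 93.6 CPM in the controls and 123, 101 and 117 CPM in OA-AP in adipose tissue (difference -0.56 ± 0.15 (SE) log2, adjusted p = 0.0224). Psmb4 was at 22.6 and 21.1 CPM in the controls and 17.7, 19.9 and 25.7 CPM in OA-AP in the pancreas (difference -0.67 ± 0.21 (SE) log2, adjusted p = 0.0368). Of these beta genes, Psmb4 was the one called upregulated in adipose tissue. Psmc3, a cap ATPase, was at 30.4 and 31.9 CPM in the controls and 27.9, 24.7 and 24.7 CPM in OA-AP in the pancreas and 92.1, 84.02 and 82.2 CPM in the controls and 120.0, 112 and 124 CPM in OA-AP in adipose tissue. Psmc6, another ATPase, was at 19.1 and 15.8 CPM in the controls and 16.2, 14.4 and 16.4 CPM in OA-AP in the pancreas and 67.3, 66.01 and 69.6 CPM in the controls and 96.9, 82.4 and 95.1 CPM in OA-AP in adipose tissue (difference -0.58 ± 0.17 (SE) log2, adjusted p = 0.0283). Both ATPases passed the adjusted p in adipose tissue alone. The lid genes Psmd6 and Psmd14 did not pass the test in the pancreas, where their groups overlapped. Psmd6 was at 44.02 and 43.8 CPM in the controls and 39.1, 38.4 and 45.5 CPM in OA-AP there. Psmd14 was at 5.58 and 5.28 CPM in the controls and 3.83, 4.06 and 5.81 CPM in OA-AP there. Psmd10, a cap assembly chaperone, was at 3.86 and 3.29 CPM in the controls and 3.04, 2.403 and 1.88 CPM in OA-AP in the pancreas and 11.8, 10.9 and 11.1 CPM in the controls and 14.8, 13.9 and 16.9 CPM in OA-AP in adipose tissue (difference -0.98 ± 0.30 (SE) log2, adjusted p = 0.0353). The core chaperones Psmg1 and Psmg4 were lower by mean in the OA-AP pancreas. Psmg1 was at 17.8, 17.6 and 18.3 CPM in the controls and 20.7, 15.7 and 19.6 CPM in OA-AP in adipose tissue (difference -0.94 ± 0.25 (SE) log2, adjusted p = 0.0192). Psmg4 was at 5.09, 5.93 and 5.99 CPM in the controls and 6.998, 6.88 and 6.31 CPM in OA-AP there (difference -1.34 ± 0.42 (SE) log2, adjusted p = 0.0433). The catalytic genes Psmb6 (difference -0.52 ± 0.15 (SE) log2, adjusted p = 0.0281) and Psmb7 (difference -0.72 ± 0.23 (SE) log2, adjusted p = 0.0456) completed the 14. Psmd4 was at 120.3, 112 and 112 CPM in the controls and 141, 120.4 and 132 CPM in OA-AP in adipose tissue. Psmd7 was at 81.6, 81.01 and 82.7 CPM in the controls and 123, 107 and 115 CPM in OA-AP there.

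**Figure D5:**
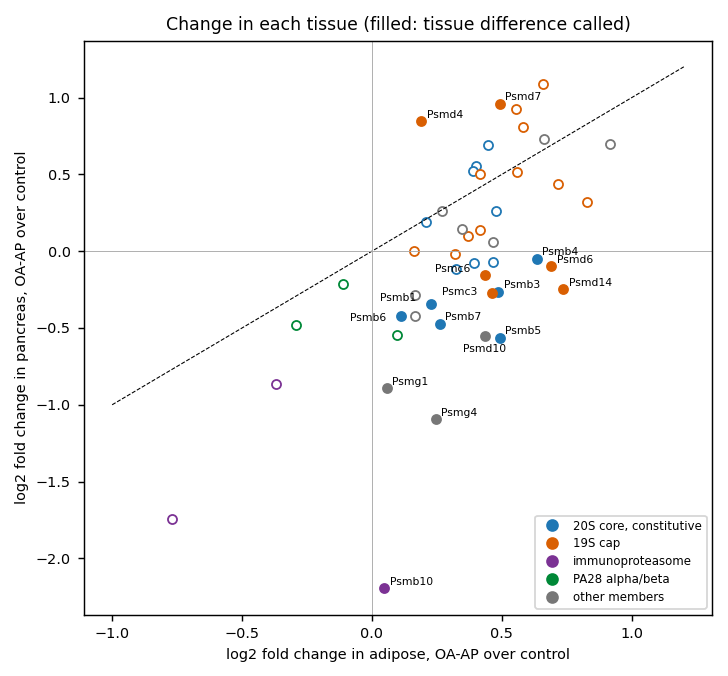
Log2 fold change in the pancreas (vertical) against that in adipose tissue (horizontal) for each member tested in both, coloured by class, with the dashed line marking equal change. Filled, named points are the 16 members whose change differed between the tissues at adjusted p under 0.05, of which 14 lie below the line and Psmd4 and Psmd7 above it.

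Promoter sequences are shown for members of the cap, the catalytic core and the immunoproteasome, so that their start-proximal bases can be compared. RefSeq windows of 300 bases (GRCm38.p6) matched 42 of the 50 members, in 45 windows. The windows were searched on both strands for the antioxidant response element core TGACNNNGC, bound by Nfe2l1 and Nfe2l2, for the CCAAT box, for the interferon-stimulated response element core GAAANNGAAA and for the gamma-activated site TTCNNNGAA. The 250 bases before the start are printed in the direction of the gene, with matches on either strand in capitals. The start is that of RefSeq and can differ from that of the gene as annotated for the counts. The Psmb8 bases lie wholly inside the annotated gene, which begins at chr17:34197721, and those of Psmd8, Psmb5 and Psmb10 do so in part. Psmd8 (chr7:29180674-29180923, minus strand) and Psmd4 (chr3:95042615-95042864, minus strand) are cap genes that rose in the pancreas, Psmb5 (chr14:54617996-54618245, minus strand) is a catalytic core gene, and Psmb8 (chr17:34197945-34198194, plus strand) and Psmb10 (chr8:105938393-105938642, minus strand) are immunoproteasome genes.
Psmd8: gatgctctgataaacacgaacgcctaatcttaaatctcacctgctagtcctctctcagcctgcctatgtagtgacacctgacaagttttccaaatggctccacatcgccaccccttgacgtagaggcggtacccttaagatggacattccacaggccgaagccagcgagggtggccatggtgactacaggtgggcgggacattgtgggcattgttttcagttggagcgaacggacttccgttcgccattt
Psmd4: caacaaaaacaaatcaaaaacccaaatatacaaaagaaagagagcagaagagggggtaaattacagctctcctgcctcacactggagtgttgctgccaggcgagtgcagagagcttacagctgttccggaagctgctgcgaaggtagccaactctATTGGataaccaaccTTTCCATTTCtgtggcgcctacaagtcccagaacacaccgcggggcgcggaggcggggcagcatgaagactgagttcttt
Psmb5: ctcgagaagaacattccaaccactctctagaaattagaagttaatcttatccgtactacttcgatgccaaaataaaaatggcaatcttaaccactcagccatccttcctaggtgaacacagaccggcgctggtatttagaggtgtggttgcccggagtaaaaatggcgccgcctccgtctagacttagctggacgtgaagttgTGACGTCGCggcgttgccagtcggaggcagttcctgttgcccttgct
Psmb8: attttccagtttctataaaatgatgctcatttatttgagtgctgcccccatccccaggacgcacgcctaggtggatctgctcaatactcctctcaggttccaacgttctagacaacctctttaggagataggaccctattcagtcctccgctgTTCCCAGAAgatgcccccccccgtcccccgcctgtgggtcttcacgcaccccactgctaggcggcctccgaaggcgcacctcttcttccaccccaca
Psmb10: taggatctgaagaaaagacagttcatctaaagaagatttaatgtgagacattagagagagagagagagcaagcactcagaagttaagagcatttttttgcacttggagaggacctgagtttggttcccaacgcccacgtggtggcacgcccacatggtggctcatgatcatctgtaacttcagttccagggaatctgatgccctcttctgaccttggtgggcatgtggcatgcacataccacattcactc

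Psmb5 holds an antioxidant response element core that begins 47 bases before the start. Psmd4 holds a CCAAT box at 95 bases and an interferon-stimulated response element core at 80 bases before it, both read on the other strand. Psmb8 holds a gamma-activated site 97 bases before the RefSeq start, inside the gene as annotated for the counts. None of the 4 motifs matched in the printed bases of Psmd8 and Psmb10. Over the members' windows the antioxidant core was found in 6 of 45 (13.3%) against 12.4% of all 32851 windows and the CCAAT box in 33.3% against 37.4%. The interferon core was found in 11.1% against 3.44% and the gamma-activated site in 6.67% against 8.30%. The 5 windows with the interferon core were those of Psmb3, Psmd4, Psmd9, Psme1 and Psmg4, with none of Psmb8, Psmb9 or Psmb10. A match describes letters and not a bound site.

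Genes around the proteasome were counted from lists of 75 genes. Over all of them 16 were upregulated and 11 downregulated of 72 tested in the pancreas, where 16.2% and 13.5% of all genes were, and 16 and 0 of 74 in adipose tissue, where 12.1% and 13% were. In the pancreas the genes that drive proteasome transcription rose, 5 of 7 tested. Ddi2, the protease that activates the factor encoded by Nfe2l1, was at 22.7 and 22.04 CPM in the controls and 116, 132 and 148 CPM in OA-AP (log2 fold change 2.56 ± 0.16 (SE), adjusted p = 7.45e-05). Nfe2l1 itself was at 43.2 and 52.2 CPM in the controls and 110.4, 104 and 139 CPM in OA-AP (log2 fold change 1.30 ± 0.18 (SE), adjusted p = 0.00136). Nfe2l2, which encodes the antioxidant factor Nrf2, was at 9.78 and 11.7 CPM in the controls and 26.3, 27.5 and 38.6 CPM in OA-AP (log2 fold change 1.53 ± 0.21 (SE), adjusted p = 0.0016). All 3 were apart between the groups. Their small Maf partners Maff (log2 fold change 1.93 ± 0.28 (SE), adjusted p = 0.00192) and Mafg (log2 fold change 1.11 ± 0.18 (SE), adjusted p = 0.0033) rose too. In adipose tissue 3 of 7 were upregulated, Maff (log2 fold change 2.24 ± 0.11 (SE), adjusted p = 0.000179), Mafk (log2 fold change 1.14 ± 0.11 (SE), adjusted p = 0.000702) and Ddi2 (log2 fold change 1.083 ± 0.13 (SE), adjusted p = 0.00149), while Nfe2l1 did not pass (log2 fold change 0.18 ± 0.17 (SE), adjusted p = 0.438).

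Part of the interferon and antigen presentation genes fell in the pancreas. Of 17 interferon genes tested 6 were downregulated and 1 upregulated, beside 13.5% and 16.2% of all genes. Of 11 genes of MHC class I processing 3 were downregulated and 0 upregulated, and B2m, the light chain of class I, was at 68.6 and 47.2 CPM in the controls and 19.2, 25.6 and 19.5 CPM in OA-AP (log2 fold change -1.44 ± 0.20 (SE), adjusted p = 0.00158). In adipose tissue 4 of 19 interferon genes were upregulated and 0 downregulated, beside 12.1% and 13% of all genes. Jak2 had the smallest p (log2 fold change 0.70 ± 0.11 (SE), adjusted p = 0.00404), and no class I gene was called. In the pancreas the summed level of 10 leukocyte markers was 38.2 and 36.8 CPM in the controls and 21.9 to 50.3 CPM in OA-AP, and 0 of the 10 were upregulated and 1 downregulated. Lymphocyte markers summed to 1.63 and 0.897 CPM in the controls and 0.515 to 0.680 CPM in OA-AP, with 0 of 10 high enough to test. Macrophage markers summed to 84.9 and 42.5 CPM in the controls and 60.2 to 66.4 CPM in OA-AP, with 0 of 8 tested upregulated and 1 downregulated. The part of these cells in the immunoproteasome values was not tested.

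Among other proteasome proteins, the ubiquitin receptor gene Adrm1 was upregulated in the pancreas (log2 fold change 0.98 ± 0.22 (SE), adjusted p = 0.0115). It was alone of 12 tested, beside 16.2% of all genes. In adipose tissue 2 of the 12 were upregulated, beside 12.1% of all genes. They were Midn (log2 fold change 1.31 ± 0.14 (SE), adjusted p = 0.00109), whose product carries proteins to the proteasome, and Txnl1 (log2 fold change 0.83 ± 0.10 (SE), adjusted p = 0.00162), a cap-bound thioredoxin-like gene. Heat and aggregate stress genes rose in both tissues, 7 of 8 in the pancreas and 6 of 8 in adipose tissue, beside 16.2% and 12.1% of all genes, with the smallest p for Sqstm1 (log2 fold change 0.98 ± 0.25 (SE), adjusted p = 0.0217) and Hspb1 (log2 fold change 2.39 ± 0.14 (SE), adjusted p = 0.000179). Of 11 shuttle and unfoldase genes 2 rose and 1 fell in the pancreas, beside 16.2% and 13.5% of all genes. Nploc4, a cofactor of the unfoldase, had the smallest p there (log2 fold change 0.96 ± 0.18 (SE), adjusted p = 0.00489). In adipose tissue 1 of the 11, Rad23b (log2 fold change 0.63 ± 0.11 (SE), adjusted p = 0.00504), rose, beside 12.1% of all genes. Neither of the 2 ubiquitin E1 genes was called in either tissue. At an adjusted p under 0.05 with no fold threshold, both E1 genes and 7 of the 12 other proteasome proteins were higher in adipose tissue. Over all the lists 31 of 74 genes were higher and 2 lower there by that threshold, beside 19.4% and 17.5% of all genes.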

How the data were processed

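Total RNA of each tissue was sequenced as paired-end reads. The authors trimmed reads with Trim Galore 0.6.6, checked their quality with fastp 0.20.1, mapped them to GRCm38 with STAR and deposited raw counts per gene from featureCounts 2.0.1; the strand setting and the annotation release are not given in the sources used here. The pancreas table also holds gene length, used for values per kilobase in both tissues. Genes were joined by gene identifier.

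Counts were filtered with filterByExpr, scaled by TMM and tested in edgeR 4.0.16 (R 4.3.3) with the robust quasi-likelihood test in each tissue, and in 1 fit of 11 samples for tissue by condition. Benjamini-Hochberg adjustment ran over all genes tested. The threshold was an adjusted p of 0.05 with, within a tissue, a fold change of 1.5. DESeq2 1.42.0 and other scalings and filters were alternatives. The scripts were tested on simulated data. The share of false calls stayed near the nominal one where noise followed the level of each gene. It was above the nominal share where some genes were simulated as far noisier. No label says how replicates were obtained, so p-values measure only the spread between these samples.

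The members and lists were chosen with earlier results of these data known. Named members were the catalytic subunits, Psme1, Psme2 and every member called in a tissue or in the tissue comparison. Of the other lists, called genes of the proteasome protein and transcription groups and the called gene of smallest p in each other group were named, apart from some that are not reported here. Psmc1, Psmc2, Psma7, Psme4, Ctrl and Tap1 were named after their values were seen.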

Additional observations from a re-analysis of the deposited data

Results flagged for a closer look

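The change in OA-AP differed between pancreas and adipose tissue, by edgeR's test of the tissue by condition term, for 16 members. The pancreas change minus the adipose change, on the log2 scale, was -2.23 for Psmb10, -1.34 for Psmg4, -1.04 for Psmb5, -0.98 for Psmd10, -0.97 for Psmd14, -0.94 for Psmg1, -0.78 for Psmd6, -0.74 for Psmb3, -0.72 for Psmc3, -0.72 for Psmb7, -0.67 for Psmb4, -0.58 for Psmc6, -0.56 for Psmb1 and -0.52 for Psmb6. It was 0.67 for Psmd4 and 0.48 for Psmd7.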

How the results depend on the processing

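The counts depended most on scaling. With library totals alone, 28 members were higher and 1 lower in the pancreas, 2 higher and 1 lower in adipose tissue, and 19 higher and 1 lower in the tissue comparison. The pathway genes then numbered 44 higher and 4 lower in the pancreas and 11 higher and 3 lower in adipose tissue. The medians became 1.03 (cap), 0.63 (core, turned in sign) and -1.04 (immunoproteasome) in the pancreas, and 0.34 and 0.24 (cap and core) in adipose tissue. Among the named members called with TMM or with library totals, Psmb4 (0.64) and Psmd6 (0.61) also turned in sign in the pancreas. In the tissue comparison Psmb1 (0.29), Psmb3 (0.11), Psmb4 (0.16), Psmb6 (0.32) and Psmb7 (0.13) did so. Psmc3 (0.13), Psmc6 (0.26), Psmd3 (0.58), Psmd6 (0.064) and Psme3 (0.64) did so there too. Named members called with neither scaling turned in sign as well, among them Psmb5 (0.15), Psmb6 (0.29) and Psmb7 (0.25) in the pancreas. The same scaling moved the median of all genes to 0.75 in the pancreas, -0.17 in adipose tissue and 0.88 in the tissue comparison. TMM without acinar genes gave pancreas medians of 0.27 (cap) and -0.12 (core), and DESeq2 size factors gave -0.11 (core).

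At any fold 11 members were higher and 5 lower in the pancreas and 27 higher and 0 lower in adipose tissue. At a fold of 2, 1 was higher and 2 were lower in the pancreas, and 0 were higher and 0 lower in adipose tissue. DESeq2 called 1 member, Psmb9, lower in adipose tissue. With no filter the tissue comparison gave 1 higher and 9 lower. Raw counts with no length term gave Psmb8, Psmb9 and Psmb10 shares of 9.63%, 11.8% and 88.3% in control and 8.03%, 5.19% and 69.3% in OA-AP pancreas, and of 46.1%, 25.7% and 26.4% in control and 32.6%, 16.1% and 23.7% in OA-AP adipose tissue.

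Without 1 library, pancreas calls ranged from 3 to 7 higher and 1 to 5 lower, adipose calls from 7 to 12 higher and 0 to 0 lower, and the tissue comparison from 1 to 2 higher and 4 to 15 lower. The pancreas lost Psma3, Psmb9, Psmd2, Psmd8, Psmd11 and Psmg1 without control replicate 1, Psma3, Psmd8, Psmd11, Psme3 and Psmg1 without control replicate 2, Psmb9 and Psmg1 without OA-AP replicate 1, and Psma3 without OA-AP replicate 3. Leaving out a pancreas control leaves 1, which the fit assumes to vary like the OA-AP group. With the replicate block, Psmb5 was called lower and Psmg1 lost in the pancreas, Psmb9 became 1 lower call in adipose tissue, and the tissue comparison had 0 higher and 4 lower (Psmb5, Psmb10, Psmc3 and Psmd6). The numbers carry no stated pairing, and same-numbered pancreas and adipose samples correlated at -0.032 to 0.104 in their deviations from the group means, not each best with its own number, so the block tests no known pairing. Other causes were not tested. Pancreas members rest on 8178 to 16971 counts per library, which limits genes such as Psmb8 and Psmb9.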
